A study of Homo sapiens with 8 samples.

Results

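The genes described here are nuclear receptor coregulators and subunits of the Mediator complex, a set of 52 named genes made up of 29 Mediator subunits and 23 other coregulators. They were found by symbol in the deposited table of 63677 genes, where 53 rows carried these symbols because MED22 appears under 2 identifiers, one of them at 0 in all libraries. A value of at least 10 normalized reads in at least 4 of 8 libraries was required, and 52 of the 53 rows met it, 1 for each gene, among 19559 genes in the table that did. The cells were LY2, an endocrine-resistant line derived from MCF-7 breast cancer cells, selected with 500 ng/mL puromycin to keep a stably expressed hairpin RNA. The control group shNT carried a non-targeting hairpin and the group shSRC1 a hairpin against NCOA1, with 4 libraries in each. Cells of both groups were grown in charcoal-stripped serum without phenol red and with 1e-08 M 4-hydroxytamoxifen (4-OHT, the active metabolite of tamoxifen), then kept without steroids for 72 h and given 1e-07 M 4-OHT for 8 h. There was no group without tamoxifen. The labels give neither the sequence nor the number of hairpins, nor whether the stable cells were clones or pools. They also do not state that each replicate was its own culture, and the p-values therefore reflect library-to-library spread that could be technical.

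Nuclear receptors such as the estrogen receptor regulate transcription by recruiting coregulators. The p160 coactivators NCOA1 (SRC-1), NCOA2 (SRC-2) and NCOA3 (SRC-3, also called AIB1) bind the receptor and bring in the histone acetyltransferases CREBBP and EP300 and the arginine methyltransferase CARM1, while Mediator links the receptor to RNA polymerase II. Corepressor complexes built on NCOR1 with TBL1X, TBL1XR1 and GPS2 act in the opposite direction, and tamoxifen-bound estrogen receptor is known to recruit them in breast cells.

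The libraries held 58459196 to 67022036 gene-assigned reads in shNT and 33771775 to 66248960 in shSRC1, where replicate 2 was the shallowest. Summed markers of luminal breast cells ran from 340043 to 416533 normalized reads in shNT and from 513845 to 583254 in shSRC1, with KRT8, KRT18 and KRT19 higher and ESR1, GATA3, FOXA1, EPCAM and CDH1 not past the threshold. Leukocyte markers summed to 15.4 to 48.3, endothelial markers to 221.7 to 288.6 and fibroblast markers to 1452 to 2187. COL1A1, at 1351 to 2039, made up most of the fibroblast sum, and VWF, at 193 to 281, most of the endothelial sum. PECAM1 was at 0 in every library and CD3E and THY1 at 0 in most. Libraries also departed from the mean of all 8 with GC content and transcript length. Across genes, Spearman's rho of a library's departure with GC content was highest in shSRC1 replicate 1 (0.481) and lowest in shSRC1 replicate 4 (-0.224). With length it was highest in shNT replicate 3 (0.106) and lowest in shSRC1 replicate 2 (-0.172).

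The comparison of shSRC1 with shNT asks whether other coactivators were higher where NCOA1 was lower. Of the 52 genes, 15 passed the threshold, an adjusted p under 0.05 in limma over all tested genes, which is 28.8% against a background of 23.2% of all tested genes. Higher in shSRC1 were 9, where 12.0% of all tested genes were, and lower were 6, where 11.2% were. With NCOA1, the gene the hairpin targets, set aside, 14 of 51 passed (27.5%), 9 as higher and 5 as lower. The genes higher were the coactivator PPARGC1A, the corepressor subunits GPS2 and TBL1X, and the Mediator subunits MED9, MED11, MED18, MED20, MED27 and MED31. The genes lower were NCOA1 itself, the corepressor LCOR and corepressor subunit TBL1XR1, the coactivator NCOA7, the chromatin remodelling ATPase SMARCA2 and the Mediator subunit MED4. In 18 of the 52 genes the groups did not overlap, against 29.0% of all tested genes. The median log2 fold change was 0.04 over the 52 genes and 0.00 over all tested genes, to 2 decimals. Without shNT replicate 4, or without shSRC1 replicate 2, 3 genes in place of 6 passed as lower.

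**Figure D1:**
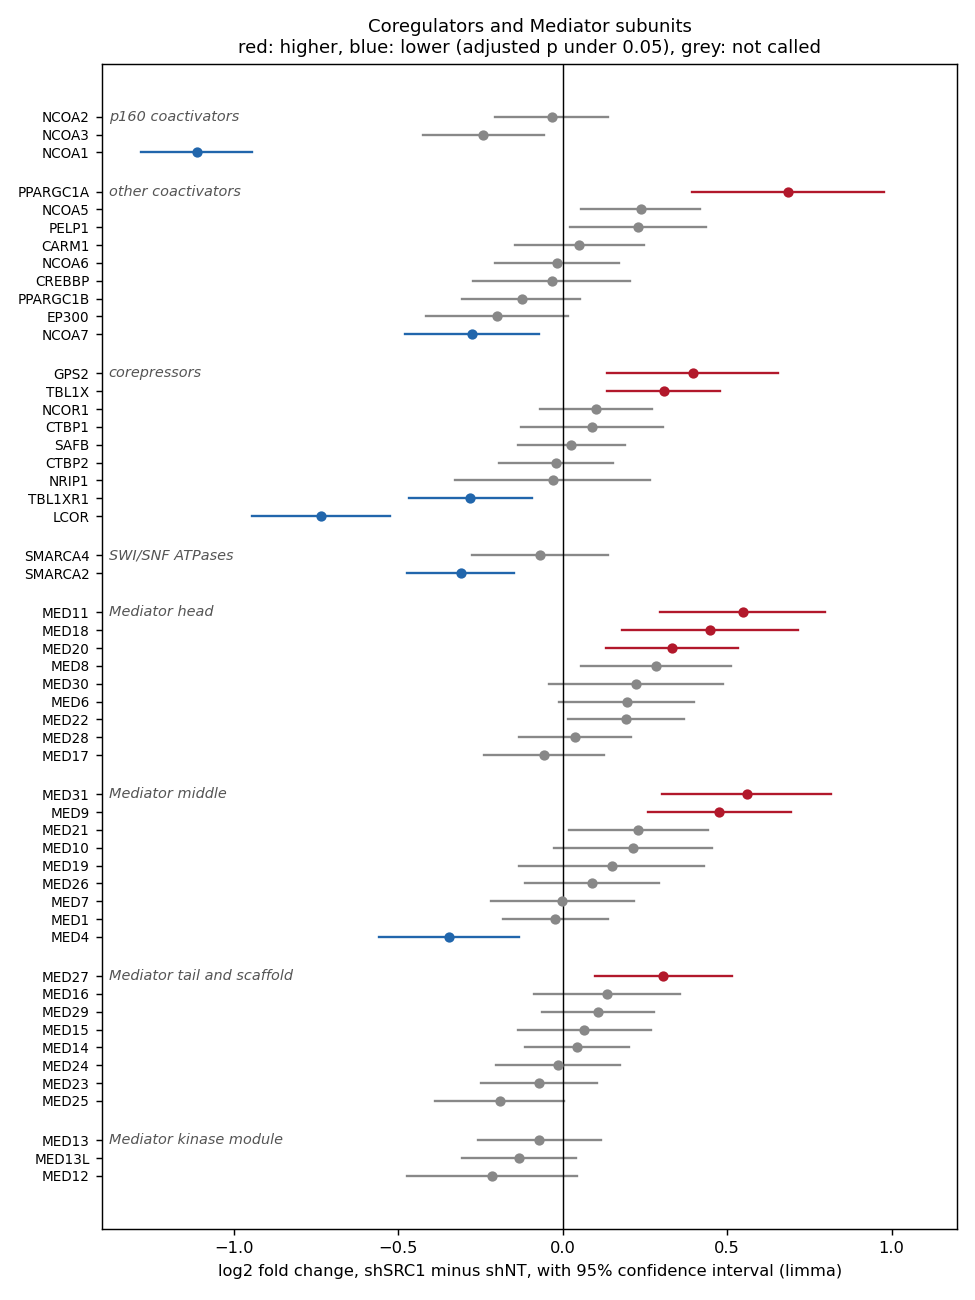
Log2 fold changes of the 52 genes (x axis, shSRC1 minus shNT, on the log2(value + 1) scale; points) with 95% confidence intervals from limma (lines), by role. Red marks the 9 genes higher in shSRC1, blue the 6 lower, and grey the 37 that did not pass; NCOA1 lies farthest to the left at -1.11 and PPARGC1A farthest to the right at 0.69.

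**Figure D2:**
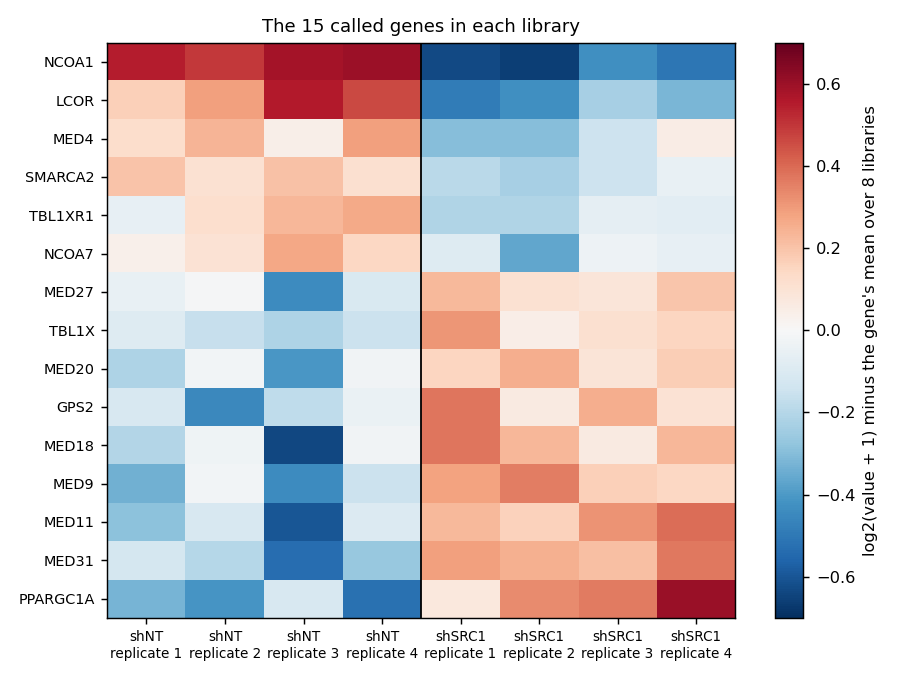
The 15 genes past the threshold (rows) in each of the 8 libraries (columns), coloured by log2(value + 1) minus the gene's mean over libraries. NCOA1 is high in the 4 shNT libraries and low in the 4 shSRC1 libraries; MED11, MED18 and MED31 are lowest in shNT replicate 3, and MED4 in shSRC1 replicate 4 lies above its level in shNT replicate 3.

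Among the p160 coactivators only the targeted gene passed the threshold. To compare levels between genes, values were divided by the length of the longest annotated transcript and are given as normalized reads per kilobase. NCOA1 stood at 592, 569, 603 and 611 per kilobase in shNT replicates 1 to 4 and at 260, 256, 299 and 285 in shSRC1 replicates 1 to 4. The groups did not overlap, and shSRC1 retained 46.3% of the mean normalized reads of shNT, and limma gave a log2 fold change of -1.11 with an SE of 0.08 (adjusted p = 2.25e-07). In bulk RNA, fewer cells with the transcript and less transcript per cell cannot be told apart.

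NCOA2 stood at 414, 414, 451 and 464 per kilobase in shNT and 402, 406, 431 and 465 in shSRC1. The groups overlapped across most of their range, and the 95% interval of the fold was 0.87 to 1.10. Rises above 1.10-fold lie outside that interval, which measures spread between libraries. NCOA3, a gene known to be amplified in MCF-7 cells, stood at 9658, 9519, 9996 and 10160 per kilobase in shNT and 8204, 7665, 8610 and 8840 in shSRC1. All 4 shSRC1 libraries were below all shNT libraries, but the log2 fold change of -0.24 (95% interval -0.42 to -0.06) missed the threshold with a limma adjusted p of 0.0548. It passed in 8 of the 21 alternative settings, among them TMM scaling (limma adjusted p = 0.0325). On the recovered reads it passed in edgeR (adjusted p = 0.0329) and in DESeq2 (adjusted p = 0.00355). It did not pass after correction for length and GC content (limma adjusted p = 0.106). In none of the 21 alternative settings was it above shNT.

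Summed over the 3 genes, p160 transcripts came to 10862 ± 339 normalized reads per kilobase in shNT and 9031 ± 557 in shSRC1 (mean ± SD, n = 4 each), a description with no test. NCOA3 made up most of both sums. Its mean dropped by 1503 per kilobase, while that of NCOA1 dropped by 319. NCOA1 supplied 5.47% ± 0.06 of the sum in shNT and 3.04% ± 0.12 in shSRC1. The ratio of NCOA1 to NCOA2 went from 1.36 ± 0.05 to 0.65 ± 0.04, so that NCOA2 became the more abundant transcript of the pair in every shSRC1 library.

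**Figure D3:**
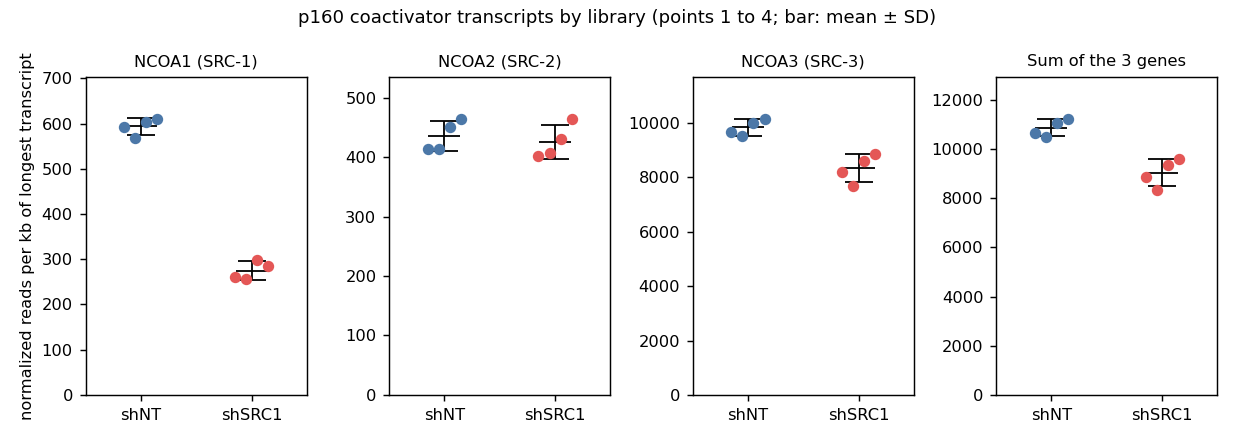
Normalized reads per kilobase of longest transcript (y axes from 0, a separate scale in each panel) for NCOA1, NCOA2, NCOA3 and their sum, with 1 point for each library and bars for mean ± SD (n = 4). The shSRC1 points for NCOA1 lie between 256 and 299 and the shNT points between 569 and 611, the NCOA2 groups overlap, and the sum follows NCOA3.

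Of the 11 coactivators other than NCOA1, 1 was higher and 1 lower, 18.2% called against the background of 23.2%. PPARGC1A, which encodes PGC-1alpha, a coactivator known for driving mitochondrial and oxidative metabolism genes, stood at 215, 203, 250 and 188 normalized reads in shNT and 284, 339, 347 and 411 in shSRC1. Every shSRC1 library was above every shNT library. Its log2 fold change was 0.69 (SE 0.14, limma adjusted p = 0.00293), the largest rise among the 52 genes, and it passed in all 21 alternative settings. Its level remained low per length, at 33.8 ± 4.2 normalized reads per kilobase in shNT and 54.6 ± 8.2 in shSRC1 (n = 4 each), against 127.5 ± 10.1 and 116.6 ± 2.8 for its paralog PPARGC1B. PPARGC1B had a log2 fold change of -0.13 and did not pass (limma adjusted p = 0.290).

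NCOA7, an estrogen receptor-associated coactivator, stood at 1200, 1259, 1411 and 1295 normalized reads in shNT and 1099, 910, 1143 and 1125 in shSRC1. The groups did not overlap, with the lowest value in the shallow shSRC1 replicate 2. Its log2 fold change was -0.28 with a limma adjusted p of 0.0496, and leaving out any 1 of the 8 libraries raised that to between 0.0597 and 0.160.

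The acetyltransferases that work with the p160 proteins did not pass. CREBBP had a log2 fold change of -0.03 (95% interval -0.27 to 0.21) and EP300 one of -0.20 (-0.42 to 0.02). EP300 ran from 5105 to 7029 normalized reads in shNT, with replicates 1 and 3 high, and from 4880 to 5507 in shSRC1. The methyltransferase CARM1 had a log2 fold change of 0.05 (-0.15 to 0.25) and NCOA6, a subunit of histone methyltransferase complexes, one of -0.02 (-0.20 to 0.17). NCOA5, which has been described as both coactivator and corepressor, stood at 4882 to 5795 normalized reads in shNT and 6104 to 7072 in shSRC1 without overlap. Its log2 fold change of 0.24 missed the threshold (limma adjusted p = 0.0549) and passed with TMM scaling (0.0481). PELP1, a scaffold for estrogen receptor signalling, had a log2 fold change of 0.23 (limma adjusted p = 0.101) with overlapping groups.

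Of the 9 corepressor genes, 2 were higher and 2 lower, 44.4% called against the background of 23.2%, a share that rests on 4 genes. LCOR, a ligand-dependent corepressor that binds the estrogen receptor and CtBP proteins, stood at 1607, 1744, 2097 and 1968 normalized reads in shNT and 1019, 1060, 1218 and 1145 in shSRC1. The highest shSRC1 library was below the lowest shNT library, and shSRC1 kept 59.9% of the mean of shNT. The log2 fold change was -0.73 (SE 0.10, limma adjusted p = 1.36e-04), the largest fall after that of NCOA1, and LCOR passed in all 21 alternative settings.

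TBL1X and TBL1XR1 encode closely related WD-repeat subunits of the NCOR complex, and the 2 genes moved in opposite directions. TBL1X stood at 9386, 8922, 8601 and 8990 normalized reads in shNT and 12337, 10298, 10784 and 11069 in shSRC1. TBL1XR1 stood at 3505, 3961, 4288 and 4373 in shNT and 3147, 3153, 3484 and 3458 in shSRC1. The groups were separate for both genes, though the lowest TBL1XR1 value in shNT, that of replicate 1, was close to shSRC1 replicate 3. The log2 fold change was 0.31 for TBL1X (SE 0.08, limma adjusted p = 0.0140) and -0.28 for TBL1XR1 (SE 0.09, limma adjusted p = 0.0320). The log2 ratio of TBL1X to TBL1XR1 went from 1.16 ± 0.19 in shNT to 1.75 ± 0.15 in shSRC1 (mean ± SD, n = 4 each) with no overlap, a description chosen after the values were seen. TBL1X passed in all 21 alternatives. TBL1XR1, a gene of low GC content, had a log2 fold change of -0.05 after correction for length and GC content (limma adjusted p = 0.651), and the limma adjusted p was 0.0975, 0.0751 and 0.0905 without shNT replicate 4, shSRC1 replicate 1 and shSRC1 replicate 2.

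GPS2, which holds the NCOR complex together and restrains inflammatory genes, stood at 325, 257, 310 and 341 normalized reads in shNT and 456, 367, 419 and 377 in shSRC1. The groups did not overlap, and the log2 fold change was 0.39 (SE 0.12, limma adjusted p = 0.0302). Without shNT replicate 2, shSRC1 replicate 1 or shSRC1 replicate 3, the adjusted p was 0.0790, 0.0866 and 0.0750. The other corepressors did not pass, with log2 fold changes of 0.10 for NCOR1, 0.09 for CTBP1, 0.03 for SAFB, -0.02 for CTBP2 and -0.03 for NRIP1. NRIP1, the estrogen-induced corepressor RIP140, had the widest interval of these (-0.33 to 0.27), with shSRC1 libraries from 2061 to 3296 normalized reads around an shNT range of 2445 to 3168.

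The SWI/SNF ATPases, which slide nucleosomes at receptor-bound enhancers, differed in their calls. SMARCA2 (BRM) stood at 5597, 5249, 5639 and 5275 normalized reads in shNT and 4286, 4159, 4411 and 4702 in shSRC1, without overlap. Its log2 fold change was -0.31 (SE 0.08, limma adjusted p = 0.00963), and it passed in all 21 alternatives. SMARCA4 (BRG1) had a log2 fold change of -0.07 (95% interval -0.28 to 0.14, limma adjusted p = 0.635). The log2 ratio of the paralogs overlapped between groups, and the difference between their changes was not tested.

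Mediator has head, middle and tail modules and a kinase module that binds reversibly. Of its 29 subunits, 6 were higher and 1 lower, 24.1% against the background of 23.2%, with a median log2 fold change of 0.11. The head held 3 higher of 9 and the middle 2 higher and 1 lower of 9. The tail and scaffold held 1 higher of 8. Without a replicate block, none of the 3 kinase module genes passed in limma, edgeR or DESeq2, with 0 at an unadjusted p under 0.05 in limma. With the block, MED12 passed as lower (limma adjusted p = 0.0462).

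The head subunits MED11, MED18 and MED20 were higher, of which MED18 and MED20 form a heterodimer that contacts polymerase. MED11 stood at 494, 559, 398 and 563 normalized reads in shNT and 705, 675, 750 and 791 in shSRC1. MED18 stood at 1110, 1254, 824 and 1261 in shNT and 1659, 1503, 1336 and 1504 in shSRC1. MED20 stood at 2250, 2577, 1971 and 2566 in shNT and 2904, 3112, 2779 and 2943 in shSRC1. In all 3 genes shNT replicate 3 was the lowest library and the groups did not overlap. The log2 fold changes were 0.55 (SE 0.12, limma adjusted p = 0.00458), 0.45 (SE 0.12, 0.0191) and 0.33 (SE 0.09, 0.0201). MED18 lost its call without shSRC1 replicate 1 (0.0698), and MED20 without shNT replicate 1 (0.0544) or shSRC1 replicate 2 (0.0634). The other 6 head subunits ran from -0.06 for MED17, the central head subunit, to 0.28 for MED8, and MED8 and MED22 had groups that did not overlap although they missed the threshold (limma adjusted p = 0.0676 and 0.104).

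In the middle module, MED31, one of the most conserved subunits, stood at 250, 237, 188 and 227 normalized reads in shNT and 333, 324, 316 and 353 in shSRC1. MED9 stood at 890, 1109, 830 and 1013 in shNT and 1368, 1443, 1262 and 1246 in shSRC1. Neither gene overlapped between groups, and their log2 fold changes were 0.56 (SE 0.12, limma adjusted p = 0.00464) and 0.48 (SE 0.10, 0.00448). MED4, whose protein pairs with MED9 in this module, stood at 1172, 1272, 1108 and 1312 in shNT and 876, 875, 973 and 1115 in shSRC1, where replicate 4 lay inside the shNT range. Its log2 fold change was -0.34 (limma adjusted p = 0.0229). The adjusted p was 0.0686, 0.0657 and 0.0727 without shNT replicate 4, shSRC1 replicate 1 and shSRC1 replicate 2, and 0.105 after correction for length and GC content. MED1, the subunit that binds ligand-bound nuclear receptors directly, had a log2 fold change of -0.02 (95% interval -0.18 to 0.14), with shNT libraries at 4660 to 4772 and shSRC1 libraries at 4387 to 4973. The other 5 middle subunits ran from 0.00 for MED7 to 0.23 for MED21.

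In the tail and scaffold, MED27 was higher by 0.31 on the log2 scale (SE 0.10, limma adjusted p = 0.0361), with 1366 to 1842 normalized reads in shNT and 1966 to 2172 in shSRC1. Its adjusted p was between 0.0544 and 0.0897 without shNT replicate 4 or any 1 of the 4 shSRC1 replicates, and 0.0822 after correction for length and GC content. MED14, the scaffold that joins the modules, had a log2 fold change of 0.04 (95% interval -0.12 to 0.20). The other 6 ran from -0.19 for MED25 to 0.13 for MED16, and MED25 passed as lower without shSRC1 replicate 1 (-0.28, limma adjusted p = 0.0285). MED12, MED13 and MED13L of the kinase module had log2 fold changes of -0.21, -0.07 and -0.13. Their partners, which are not among the 52 genes, were the kinases CDK8 (-0.16) and CDK19 (-0.23) and cyclin C (CCNC, 0.03), none past the threshold, and MED12L, a paralog of MED12 that was higher. MED12L stood at 333, 324, 380 and 397 normalized reads in shNT and 553, 616, 588 and 624 in shSRC1. The groups did not overlap, and the log2 fold change was 0.73 (SE 0.10, limma adjusted p = 2.29e-04).

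The Mediator calls fell among subunits with short transcripts. Of the 19 subunits with a longest transcript under 4000 bases, a limit set after the values were seen, 6 were higher and 1 lower, with a median log2 fold change of 0.21. Of the 10 with longer transcripts none passed in limma, edgeR or DESeq2 without a replicate block. In limma 1 had an unadjusted p under 0.05, and the median was -0.04. With the block, MED22 passed as higher and MED12 as lower. Over all tested genes with a known length the median was 0.05 under 2000 bases, 0.03 from 2000 to 4000, -0.04 from 4000 to 8000 and -0.10 from 8000 up. The share called higher was 12.4%, 12.9%, 11.0% and 12.9% in these bins and did not follow length, while the share called lower was 6.21%, 9.92%, 16.6% and 19.9%. Spearman's rho of log2 fold change with length over the 29 subunits was -0.69, and -0.60 after each library was corrected for length and GC content, given as a description since the subunits share libraries. The median departure of the short subunits from their mean over all libraries was -0.41 in shNT replicate 3, against -0.10 to 0.00 in the other shNT libraries, and 0.06 to 0.15 in shSRC1. With shNT replicate 3 left out, all 6 Mediator genes that were higher passed again, and the median over Mediator was 0.06. With the correction, 5 of those 6 genes passed, MED27 did not and MED21 was added (log2 fold change 0.36, limma adjusted p = 0.0234). Without both shNT replicate 3 and shSRC1 replicate 1, the median over Mediator was 0.02, and MED9, MED11, MED18, MED20 and MED31 passed. The part of library composition in the Mediator result was otherwise not tested.

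**Figure D4:**
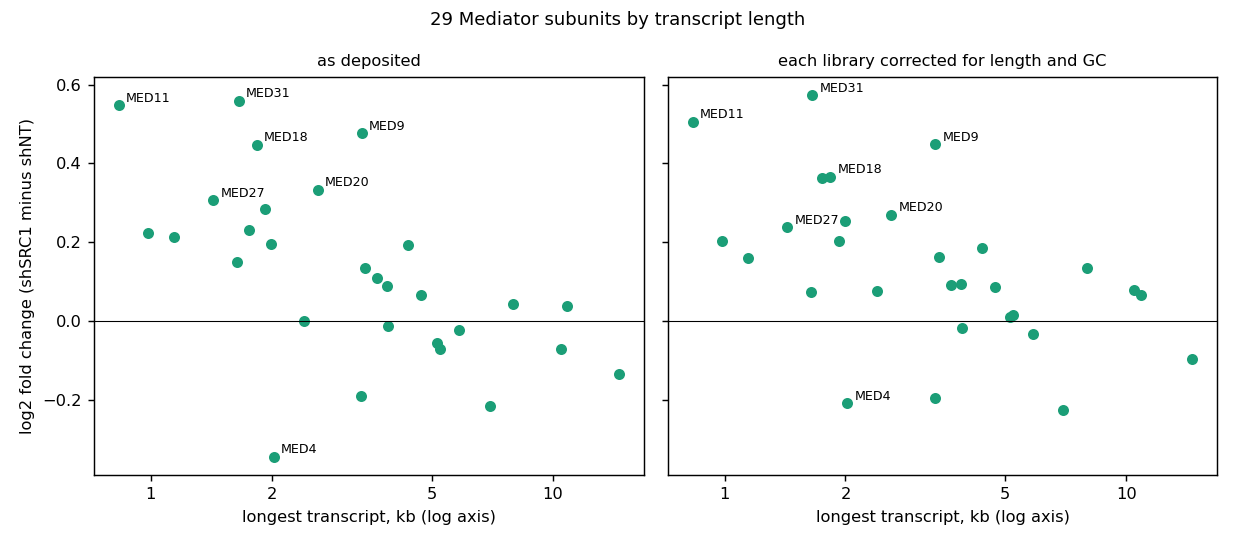
Log2 fold change of the 29 Mediator subunits (y axis, shSRC1 minus shNT) against length of the longest transcript in kilobases (x axis, log scale), from the values as deposited and after each library was corrected for length and GC content. Genes past the threshold in the deposited values are named in both panels; all 7 lie under 4 kilobases, and in the corrected panel MED4 is at -0.21 and MED27 at 0.24.

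Several of these genes lay among neighbours that had moved the same way. For each gene the nearest tested protein-coding genes were taken, 10 on each side. Around MED31, GPS2 and MED9, on the short arm of chromosome 17, the median log2 fold change of the 20 neighbours was 0.48, 0.49 and 0.43, and 14, 14 and 13 of the 20 were higher past the threshold. Around MED11, on the same arm, it was 0.21 with 8 of 20 higher, around PELP1 0.23 with 9 and around NCOR1 0.20 with 8. Genes that lie close together on a chromosome can share neighbours, so these counts are not separate observations. Around TBL1X on the X chromosome it was 0.31 with 9 of 20 higher. Around MED4 on chromosome 13 it was -0.26, with 7 of 20 lower and 1 higher. Around TBL1XR1 on chromosome 3 it was -0.18, with 6 lower and 2 higher. The neighbours of other genes past the threshold were centred nearer 0. Their medians were -0.01 for NCOA1, -0.01 for PPARGC1A, 0.03 for NCOA7 and 0.04 for MED20. They were 0.08 for MED27, 0.12 for MED18, -0.09 for LCOR and -0.10 for SMARCA2. Even so, 5 of 20 were lower and 0 higher around LCOR, and 4 of 17 lower and 3 higher around SMARCA2. Around MED27, 5 of 20 were higher and 0 lower. Over all tested genes 12.0% were higher and 11.2% lower. A change shared with neighbours and a change of the gene on its own cannot be told apart here by the gene's value.

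**Figure D5:**
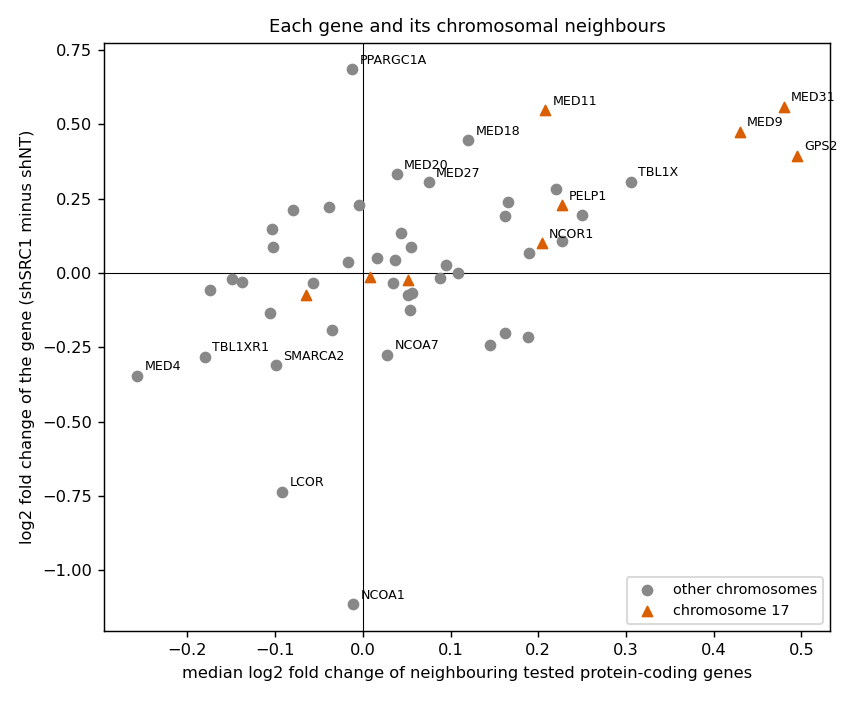
Log2 fold change of each of the 52 genes (y axis) against the median log2 fold change of its neighbouring tested protein-coding genes (x axis, up to 20 genes), with triangles for chromosome 17 and names for the 15 genes past the threshold, PELP1 and NCOR1. GPS2, MED31 and MED9 lie at the upper right, while NCOA1, LCOR and PPARGC1A lie far from 0 on the y axis with neighbours near 0.

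The sequences before the start of the 4 chromosome 17 genes that passed the threshold as higher are shown so that a reader can compare their promoters. They are 250 bases upstream of the RefSeq gene start on GRCh38.p14, written 5′ to 3′ along the gene's strand. They lie at chr17:7315361-7315610 on the minus strand for GPS2, chr17:4731178-4731427 on the plus strand for MED11, chr17:6651606-6651855 on the minus strand for MED31 and chr17:17476750-17476999 on the plus strand for MED9. Capitals mark the ETS core CCGGAAG, the GC box core GGGCGG or the TATA box core TATAAA on either strand, and neighbouring matches may overlap.
GPS2: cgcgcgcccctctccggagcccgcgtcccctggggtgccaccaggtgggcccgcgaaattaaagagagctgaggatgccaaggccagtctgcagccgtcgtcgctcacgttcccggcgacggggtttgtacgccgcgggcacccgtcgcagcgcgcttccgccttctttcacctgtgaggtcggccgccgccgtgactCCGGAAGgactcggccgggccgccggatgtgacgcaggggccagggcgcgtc
MED11: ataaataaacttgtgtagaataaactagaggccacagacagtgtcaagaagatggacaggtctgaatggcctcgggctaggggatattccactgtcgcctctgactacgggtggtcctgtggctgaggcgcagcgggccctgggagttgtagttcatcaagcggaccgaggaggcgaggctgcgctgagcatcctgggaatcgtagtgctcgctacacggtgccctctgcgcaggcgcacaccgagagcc
MED31: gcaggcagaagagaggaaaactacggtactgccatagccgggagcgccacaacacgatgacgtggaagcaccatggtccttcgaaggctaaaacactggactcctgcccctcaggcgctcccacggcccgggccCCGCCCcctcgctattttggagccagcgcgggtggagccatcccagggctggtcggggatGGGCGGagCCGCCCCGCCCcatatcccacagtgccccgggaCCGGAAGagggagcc
MED9: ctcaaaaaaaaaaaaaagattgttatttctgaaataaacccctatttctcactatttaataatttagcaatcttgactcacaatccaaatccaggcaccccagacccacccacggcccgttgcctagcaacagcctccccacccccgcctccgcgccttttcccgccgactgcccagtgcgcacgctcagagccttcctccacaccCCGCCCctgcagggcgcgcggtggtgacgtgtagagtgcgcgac
GPS2 and MED31 held the ETS core, which 8.5% of 35116 RefSeq promoter windows of this length hold. MED31 and MED9 held the GC box core, present in 42.6% of windows. None of the 4 held the TATA box core, present in 10.7%, and MED11 held none of the 3 words. These matches describe the letters of the windows only.

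Some of these genes share exonic bases with others in GENCODE 29, and whether strand was used in counting is not stated in the labels. MED31 shares 58.3% of its exonic bases with TXNDC17 on the opposite strand, and GPS2 shares 44.7% with the transcript AC026954.2 on its own strand, so their values are uncertain. GPS2 also shares 7.8% with EIF5A, and MED11 5.8% with CXCL16, both on the opposite strand. Among genes that did not pass, the largest shares were 32.1% for MED28, 31.2% for CTBP2, 27.2% for MED26 and 19.9% for CARM1.

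Other genes of these pathways were counted from lists made with earlier results of these data known. Of 47 other nuclear receptor coregulators, 5 were higher and 5 lower, 21.3% against the background of 23.2%. The PIAS-like coactivator ZMIZ1 (log2 fold change -0.49) and CCAR1 (-0.45), which works with Mediator and p160 proteins, were lower, and the acetyltransferase complex subunit TADA3 (0.48) and acetyltransferase KAT5 (0.38) were higher, with limma adjusted p of 0.00427, 0.0102, 0.00874 and 0.00956. Of 22 other SWI/SNF subunits, 3 were higher and 1 lower, 18.2% against the background of 23.2%. Among them were the core subunit SMARCB1 at 0.41 (limma adjusted p = 0.00791), SS18 at 0.28 (0.0171) and BRD9 at -0.27 (0.0349). Of 13 elongation factors that work with Mediator, 1 was higher and 4 lower, 38.5% against 23.2%. The super elongation complex genes MLLT3 and AFF1 and the P-TEFb cyclin CCNT2 were lower at -0.62, -0.33 and -0.44, with limma adjusted p of 0.00212, 0.0132 and 0.00990. The kinase CDK9, cyclin T partner in P-TEFb, was higher at 0.28 (limma adjusted p = 0.0294).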

How the data were processed

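The 8 libraries, 4 shNT and 4 shSRC1, were made from oligo(dT)-captured RNA and grouped by the labels. The authors deposited a signal for each gene, its reads over a library size factor. The software named, per the submitters' processing notes, was DESeq, DESeq2, HTSeq 0.6.1 and TopHat2 2.0.12, with the GRCh37 build. What each did, and with which options, is not given in the sources used here. All values were whole multiples of 1 read (100.0% of values within 0.001 reads), so read counts were recovered for edgeR 4.0.16 and DESeq2 1.42.0, run as alternatives. Over all 19559 tested genes edgeR called 2329 higher and 2306 lower, and limma 2344 and 2194.

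Groups were compared in R 4.3.3 by limma 3.58.1 (trended, robust variance) after log2(value + 1), a scale that understates changes of low genes. The two-sided p-values were adjusted by Benjamini-Hochberg across genes with a value of at least 10 in at least 4 libraries, with no replicate block. The test was checked on simulated data without library trends in GC content or length and without shared replicate effects. The check does not cover these. The members, lists and role groups were chosen with earlier results of these data known. Every gene of the 52 past the threshold is named, with the p160 genes and others given for their role, and up to 4 genes past the threshold from each further list. Some genes of these lists are not reported here. A value of 0 allows up to 3 reads, a limit that covers counting error only.

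GENCODE 29 on GRCh38, not the build of the table, gave only gene order, chromosome, exon overlap, length and GC content, for 18787 of 19559 genes (96.1%). Promoters come from RefSeq on GRCh38.p14, and all 4 printed genes matched. The correction fitted splines of length and GC content, with 5 degrees of freedom each, to each library's departures. Alternatives were other scalings, filters, pseudocounts, a replicate block, the correction, each library left out, and 2 pairs of libraries left out, the last chosen after seeing the data.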

Additional observations from a re-analysis of the deposited data

Results flagged for a closer look

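Among 104 groups of 4 libraries, 1 for each of the 52 genes in shNT and in shSRC1, 8 held a library whose gap to the nearest other exceeded Dixon's 95% critical share of the group's range, and chance gives about 1 group in 20. All 8 lay in shNT replicate 3 or shSRC1 replicate 1.

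In shNT replicate 3, CTBP1 was low at 5317 normalized reads (nearest library 6644), MED22 low at 3753 (4316) and MED29 low at 3953 (4534). MED13L, with one of the longest transcripts, was high there at 13746 (12235). In shSRC1 replicate 1, CARM1 was high at 8942 (7337), MED15 at 5076 (4137), MED22 at 5268 (4652) and MED25 at 2305 (1852). None of these 7 genes passed the threshold with all 8 libraries. Without shSRC1 replicate 1, MED25 passed as lower, with a log2 fold change of -0.28 (limma adjusted p = 0.0285). The source of the departures was not tested.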

How the results depend on the processing

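NCOA1, LCOR, PPARGC1A, SMARCA2, TBL1X, MED9, MED11 and MED31 passed with the same direction in all 21 alternatives, and NCOA1 ran from -1.15 to -1.07. Calls among the 52 genes numbered 17 with TMM scaling, 18 with upper-quartile scaling, 12 with no filter, 16 with a minimum of 50, 15 with pseudocounts of 0.5 or 5, 17 in edgeR and 17 in DESeq2. Leaving out 1 library gave 10 to 15 calls, 6 to 10 higher and 3 to 6 lower. Correction for length and GC content gave 15 calls, 11 of them among the original 15, with TBL1XR1, MED4, MED27 and NCOA7 lost and MED21, MED25, NCOA5 and PELP1 gained. Leaving out 2 libraries gave 13 calls (shNT 3 and shSRC1 1) and 11 (shNT 3 and shSRC1 2).

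Same-numbered libraries of the groups correlated at 0.24, -0.01, 0.13 and 0.14. In shNT, replicates 1, 3 and 4 correlated best with their own number in shSRC1, and replicate 2 with number 4. Because replicate 2 did not match, libraries were taken to share only a number. Whether the others were paired was not tested. A replicate block gave 22 calls, 14 of them higher where the fit without it gave 9, and kept all 15 original calls. It added MED8, MED21, MED22, NCOA5 and PELP1 as higher and NCOA3 and MED12 as lower, MED12 at -0.21 (limma adjusted p = 0.0462).

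Signs reversed only for genes that passed in none of the 21 alternatives. With the correction, and equally with the replicate block beside it, log2 fold changes became 0.033 for CTBP2, 0.12 for NRIP1, 0.009 for MED17, 0.079 for MED13, 0.075 for MED7, 0.016 for MED23 and 0.007 for NCOA2. With 1 library left out, values ran from -0.086 to 0.026 for MED24, -0.11 to 0.034 for CREBBP, -0.079 to 0.008 for CTBP2, -0.060 to 0.059 for MED7, -0.11 to 0.11 for NRIP1, -0.001 to 0.069 for MED28, -0.068 to 0.043 for NCOA6, -0.055 to 0.005 for MED1, -0.013 to 0.10 for MED15 and -0.023 to 0.10 for CARM1. Without shNT 3 and shSRC1 1 they were -0.066 for CTBP1, 0.17 for NRIP1, -0.012 for SAFB, 0.016 for MED13, 0.004 for MED1, -0.026 for MED16, -0.064 for CARM1 and 0.011 for NCOA2. Without shNT 3 and shSRC1 2 they were 0.037 for NRIP1, -0.016 for MED28, 0.008 for MED13, 0.030 for MED7, 0.036 for CREBBP, 0.051 for NCOA6 and 0.007 for NCOA2. The cause of these reversals was not tested. For genes that missed the threshold, changes within the printed intervals were not excluded with 4 libraries a group.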
